A study of Mus musculus with 6 samples.

Results

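The comparison described here set 1 library of CD4+ T cells labelled Zak-deficient against 1 WT library, both taken after 6 h of stimulation. It used 10347 of the 18446 genes in the deposited table, those whose FPKM averaged at least 1 across the 6 libraries of the study. FPKM counts fragments per kilobase of transcript, corrected for the size of the library. Because of the conflict described below, the first of these is called the Zak-labelled library. Differences were taken on log2(FPKM+1), labelled Zak-deficient minus WT, and every fold below is on that scale, on which folds of low genes come out too small. The other 4 libraries, 1 per genotype before stimulation (0 h) and after 48 h, served to show which differences were also present at other times.

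All mice were C57BL/6 and 6 to 8 weeks old. CD4+ T cells of the naive type (CD44 low, CD62L high) were sorted from spleen and lymph nodes by flow cytometry and cultured with anti-CD3 and anti-CD28. The former triggers the T cell receptor (TCR) and the latter gives the costimulatory signal. The WT groups carried no stated allele. The other genotype is given as Zak-/-, while the protocol speaks of mice deficient only in T cells and names no Cre driver, which leaves the extent of the deletion unclear. With 1 library per group there is no replicate spread, no test and no p-value, and a difference may belong to the culture, the mouse or the library as well as to the genotype.

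Zak, encoded by Map3k20, is a MAP kinase kinase kinase (MAP3K). It is known for sensing stalled and collided ribosomes and for passing that signal through MAP2 kinases to the p38 and JNK kinases, the ribotoxic stress response. In T cells, p38, JNK and ERK act beside the calcium and NF-kB pathways after TCR engagement and feed into the immediate-early genes, transcription factor genes switched on without new protein synthesis.

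Map3k20 itself (chromosome 2, 72285637 to 72442610, mm10) was near the detection limit at 6 h. Its level was 0.19 FPKM in WT cells and 0.10 in the Zak-labelled library. At 48 h the values were 1.35 and 1.61 FPKM. A gene-level value sums all exons and cannot show a deleted one. The 6 h values are too low to check the label, and the 48 h values did not follow it. Each direction given below therefore rests on the label. The 8 markers of CD4 T cells summed to 2181 FPKM in WT cells and 2248 in the Zak-labelled library at 6 h, so the labelled cell type was present in both. The 8 B cell markers summed to 5.42 and 5.97 FPKM and the 7 monocyte or macrophage markers to 4.46 and 3.40. In bulk RNA, fewer cells of a type and less RNA per cell cannot be told apart.

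The 6 h libraries differed little for most genes and in a graded way. The median gene differed 1.10-fold in either direction, and 9 in 10 genes differed by less than 1.27-fold. At 1.5-fold or more, 81 genes were higher (0.783% of those measured) and 90 were lower (0.87%) in the Zak-labelled library. A wider count took every gene whose (FPKM+1) values stood at a ratio of 5 to 4 or more, written 5:4 below. By it, these were 559 (5.4%) and 730 (7.06%), and 46.5% of all genes lay above 0 and 53.1% below it. The median log2 difference of all genes was -0.02. With each library scaled to a common sum, 122 genes were higher and 59 lower at 1.5-fold, so the balance between the directions depended on scaling.

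**Figure D1:**
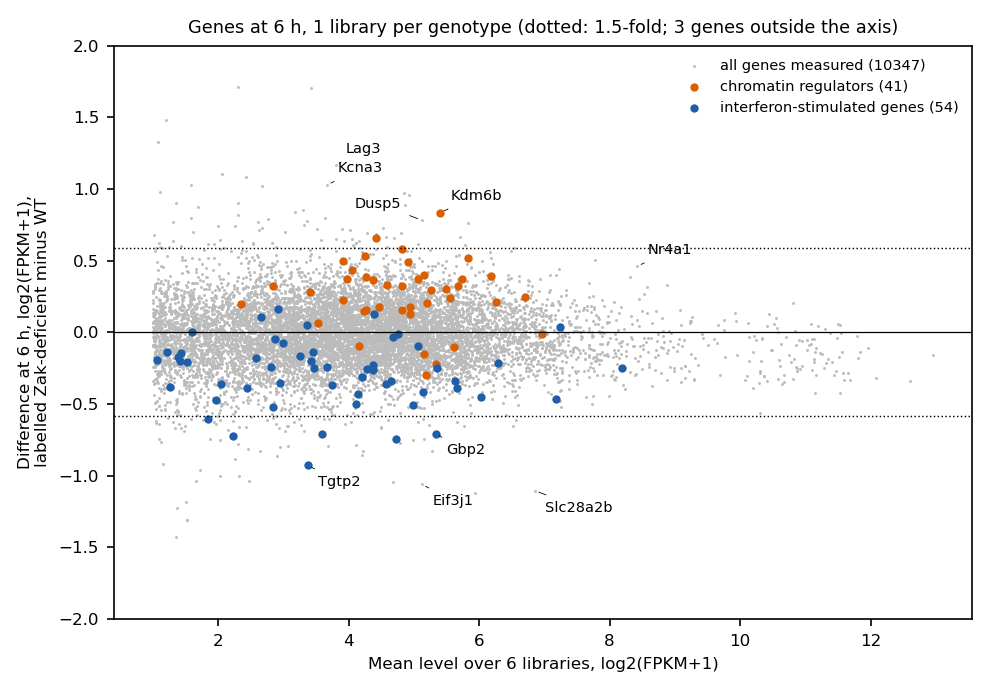
Difference at 6 h (y axis, log2(FPKM+1), labelled Zak-deficient minus WT) against the mean level over the 6 libraries (x axis, log2(FPKM+1)) for 10347 genes in grey, 1 library per genotype. The 54 interferon-stimulated genes (blue) lie mostly below 0 and the 41 chromatin regulators (orange) mostly above it, while most points lie within the dotted 1.5-fold lines.

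Among the genes with the largest differences, several act on the strength or duration of T cell signalling. Lag3, an inhibitory receptor that binds MHC class II (chromosome 6, 124904359 to 124912434), stood at 3.48 FPKM in WT cells and 9.04 in the Zak-labelled library, a 2.24-fold difference. It was 0.70 and 0.69 FPKM at 0 h and 25.3 and 38.5 at 48 h, so the libraries were alike at rest and apart at both stimulated times. Kcna3, the voltage-gated potassium channel Kv1.3 that sustains calcium entry in T cells, stood at 7.44 and 16.2 FPKM at 6 h. At 0 h it was 4.34 and 3.84 FPKM and at 48 h 19.1 and 19.6, against a 2.04-fold difference at 6 h. Dusp5, a nuclear phosphatase that acts on ERK, stood at 55.9 FPKM in WT cells and 96.9 in the Zak-labelled library. Its values were 13.2 and 12.6 FPKM at 0 h and 11.6 and 12.3 at 48 h. Kdm6b, the demethylase that removes repressive methyl marks from H3K27, had the same shape. It stood at 15.2 and 13.5 FPKM at 0 h, at 70.3 and 126.1 at 6 h and at 11.5 and 11.4 at 48 h. In both genotypes Dusp5 and Kdm6b were highest at 6 h, and the 6 h value was 1.72-fold and 1.78-fold higher in the Zak-labelled library. After the centring on GC content and length described below, the log2 difference of Dusp5 was 0.72 (0.78 before), while that of Kdm6b was 0.48 (0.83 before) and no longer passed 1.5-fold.

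The other genes of the 15 highest at 6 h, with a mean of 5 FPKM or more, had varied functions. Trim56, an E3 ubiquitin ligase of innate antiviral signalling, stood at 5.90 FPKM in WT cells and 11.4 in the Zak-labelled library. Uhmk1, a kinase that phosphorylates splicing factors, stood at 6.37 and 11.6 FPKM, and the adaptor gene Eps8l1 at 9.82 and 17.8. Scand1, a SCAN domain gene, stood at 20.5 and 38.7 FPKM. Of these 15 genes, 7 differed by less than 5:4 at both 0 h and 48 h (Kcna3, Scand1, Trim56, Kdm6b, Dusp5, Zbed6 and Mfap1b). Another 2, Eif3j2 and Cdk5rap1, were at least 1.5-fold higher at every time. Cdk5rap1, which modifies mitochondrial tRNAs, stood at 6.39, 6.35 and 5.75 FPKM in WT at 0, 6 and 48 h and at 13.1, 11.4 and 11.1 in the Zak-labelled libraries. The values of Eif3j2, H2-Q6 and Mfap1b are uncertain, since 50% or more of their transcript sequence recurs in another gene.

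The 15 lowest genes also had varied functions. Eif3j1, a subunit of translation initiation factor eIF3, stood at 56.7 FPKM in WT cells and 26.7 in the Zak-labelled library, 2.09-fold lower. Its relative Eif3j2, of whose transcript sequence 95.6% recurs in another gene, stood at 0.62 and 22.7 FPKM. For Eif3j1 this share is 41.7%, short of the 50% used here for a near copy, so its level is uncertain as well. The opposite pattern of this pair was present at 0 h as well, with 22.4 and 10.2 FPKM for Eif3j1 and 1.11 and 15.95 for Eif3j2. Bnip3, a mitophagy receptor, stood at 3.50 and 1.54 FPKM, and Pglyrp1, a peptidoglycan-binding protein, at 3.79 and 1.64. Cox20, an assembly factor of cytochrome c oxidase, stood at 25.9 and 14.8 FPKM (log2 difference -0.77, and -0.48 after the centring, short of 1.5-fold), and the ubiquitin-conjugating enzyme gene Ube2e3 at 21.1 and 11.8. Trappc2, a subunit of a vesicle-tethering complex, stood at 7.95 and 4.03 FPKM, with 5.44 and 5.4 at 0 h and 4.32 and 4.46 at 48 h. Of the 15 lowest genes, 4 differed by less than 5:4 at the other times (Rpl37rt, Pglyrp1, Trappc2 and Cfap36). Slc28a2b, Eif3j1 and Zfp972, all on chromosome 2, were at least 1.5-fold lower at every time, and 6 of the 15 share 50% or more of their sequence with another gene (among them Rpl37rt, Slc28a2b and Tgtp2).

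**Figure D2:**
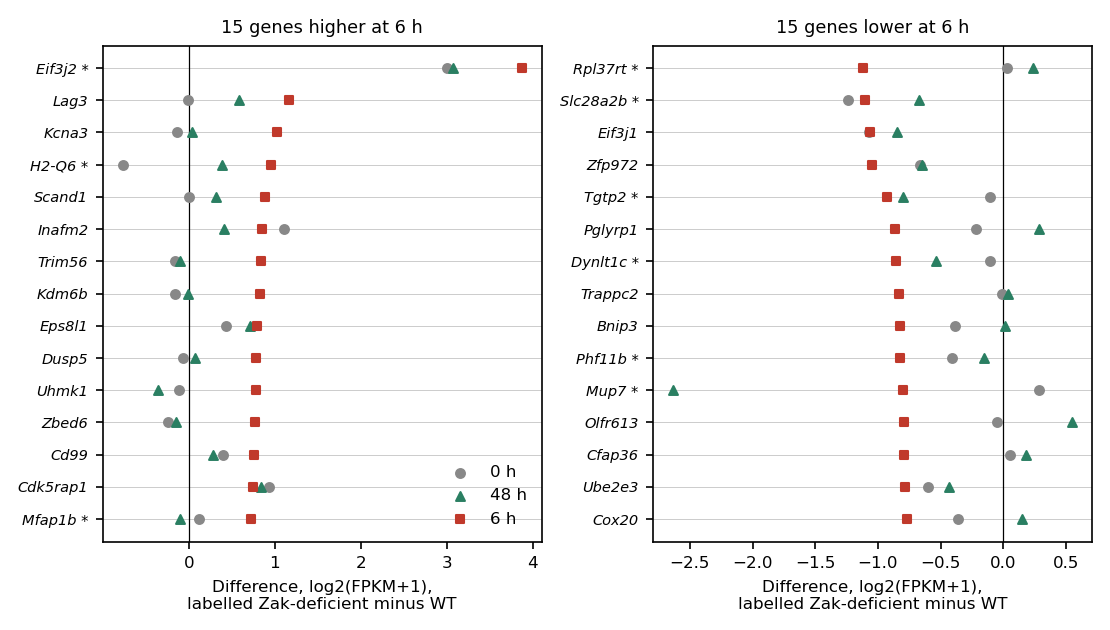
Difference between the genotypes (x axis, log2(FPKM+1), labelled Zak-deficient minus WT) at 0 h (circles), 6 h (squares) and 48 h (triangles) for the 15 genes highest and the 15 lowest at 6 h among those with a mean of 5 FPKM or more. An asterisk marks a gene with a near-identical copy. Kdm6b and Dusp5 stand apart from 0 at 6 h alone, whereas Eif3j2, Cdk5rap1, Eif3j1 and Slc28a2b stand apart at every time.

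Genes on chromosome 2, which carries Map3k20, made up 4 of the 15 highest and 4 of the 15 lowest genes. Of 825 measured genes on that chromosome, 2.55% passed 1.5-fold in either direction, against 1.52% of 9485 genes on other chromosomes. Whether strain-specific sequence around the targeted locus had a part in this was not tested.

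The lowest of the gene lists was that of interferon-stimulated genes, which are switched on through JAK kinases and STAT factors and defend cells against viruses and intracellular microbes. Of 64 genes listed, 54 were measured. Of these 48 were lower in the Zak-labelled library and 5 higher, against 53.1% of all genes below 0, and the median log2 difference was -0.25. At 5:4 or more 23 were lower and 0 higher, and at 1.5-fold or more 6 were lower, against 7.06% and 0.87% of all genes. Of these 6, Tgtp2, Tgtp1 and Ifit3 share 95.8%, 94.25% and 66.8% of their sequence with another gene. Their levels are uncertain, and they may not be separate observations. Gbp2, a guanylate-binding protein that attacks pathogen vacuoles, stood at 24.2 FPKM in WT cells and 14.4 in the Zak-labelled library, 1.63-fold lower. Iigp1, an immunity-related GTPase, stood at 6.11 and 3.31 FPKM. Ly6a, which encodes the surface protein Sca-1, stood at 39.6 and 23.3 FPKM at 6 h and at 42.8 and 31.7 at 0 h.

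The promoters shown are those of the interferon-stimulated genes of lowest ratio that hold a match to GAAANNGAAA (the interferon-stimulated response element, ISRE, in simplified form; N is any base) upstream of a RefSeq start. Genes with near-identical copies were passed over. Only a single match per promoter, on either strand, is in capitals, and further matches of Ifit1 and Isg15 are left in lower case. Each stretch of 60 bases is given 5′ to 3′ on the strand of its gene (GRCm38.p6). They lie at chr3:142620579-142620638 (Gbp2, plus strand), chr1:173942493-173942552 (Ifi203, minus), chr19:34640779-34640838 (Ifit1, plus), chr1:173599311-173599370 (Ifi213, minus), chr4:156200850-156200909 (Isg15, minus) and chr11:58214888-58214947 (Irgm2, plus).
Gbp2: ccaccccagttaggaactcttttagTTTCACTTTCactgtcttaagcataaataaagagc
Ifi203: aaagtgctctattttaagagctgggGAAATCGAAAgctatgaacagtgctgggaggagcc
Ifit1: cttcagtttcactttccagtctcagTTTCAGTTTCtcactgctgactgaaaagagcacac
Ifi213: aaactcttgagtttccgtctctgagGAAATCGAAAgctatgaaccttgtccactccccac
Isg15: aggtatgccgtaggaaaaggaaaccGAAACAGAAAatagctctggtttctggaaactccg
Irgm2: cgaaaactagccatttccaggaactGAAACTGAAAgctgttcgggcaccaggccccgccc

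In the RefSeq promoters (250 bases before to 50 after a start), 41 of the measured interferon-stimulated genes had an entry and 28 of them (68.3%) held this motif on either strand, against 3.86% of the 8400 measured genes with an entry and 3.44% of all 32851 promoters. A GAS-like motif, TTCNNNGAA, the site of STAT dimers, was in 15 of the 41 (36.6%) and in 8.33% of measured genes. It can overlap the first motif. Beyond the list, 296 measured genes held the ISRE-like motif. Their median log2 difference was -0.08, against -0.02 for genes with neither the motif nor a place on the list, and -0.04 after centring on GC content and length. Within the list there was no such order: the 28 genes with the motif had a median of -0.22 and the 13 without it one of -0.25. A match is a description of letters in this window and not a bound site.

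Within the list, the interferon-inducible GTPases stood furthest apart, a grouping made after the values were seen. All 15 measured members of the Gbp, Irgm, Tgtp and related families were lower at 6 h, against 53.1% of all genes. Their median log2 difference was -0.42, and 11 were lower by 5:4 or more, against 7.06% of all genes. Tgtp2, Tgtp1 and Gbp6 share 95.8%, 94.25% and 55.9% of their sequence with another gene, and Gbp8 36.0%. Their levels are uncertain, and the 15 may not be separate observations. Without near-identical copies and genes with a 24-base stretch found in 50 or more genes, the median of the interferon list was -0.25. Genes with smaller shares, such as Gbp8, stayed in. Igtp stood at 61.2 FPKM in WT cells and 46.4 in the Zak-labelled library, Ifi47 at 71.2 and 51.8, and Gbp4 at 40.7 and 30.2. All 15 were also lower at 48 h, against 53.9% of all genes, and the median was -0.39. At 0 h 12 of 15 were lower, against 51.9% of all genes, with a median of -0.12. Of them 1 was lower by 5:4 or more, against 299 of all 10347 genes. At 6 h the IFIT proteins came next, with 3 measured, all lower, and a median of -0.38. The IFI200 family followed, with 3 of 4 lower and a median of -0.29, against 53.1% of all genes below 0. The 4 OAS enzymes, which sense double-stranded RNA, were low in both libraries, at no more than 2.46 FPKM in WT, and their median was -0.17. Among the factors that drive these genes, Irf1 stood at 60.8 and 47.8 FPKM and Irf9 at 26.57 and 21.98, while Stat2 stood at 9.14 and 9.49. The receptor genes differed less: Ifngr1 stood at 237.5 and 224.8 FPKM and Ifnar1 at 33.4 and 31.8. The interferon list also had medians below 0 at the other times, in libraries not used at 6 h, but less uniformly. At 0 h the median was -0.08, with 37 genes below 0 and 16 above, against 51.9% of all genes below. At 48 h it was -0.12, with 34 below and 20 above, against 53.9% of all genes below. All 4 measured genes of the IFI200 family were higher at 48 h (median 0.38), against 45.7% of all genes, and Isg15 stood at 2.02 and 9.67 FPKM.

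**Figure D3:**
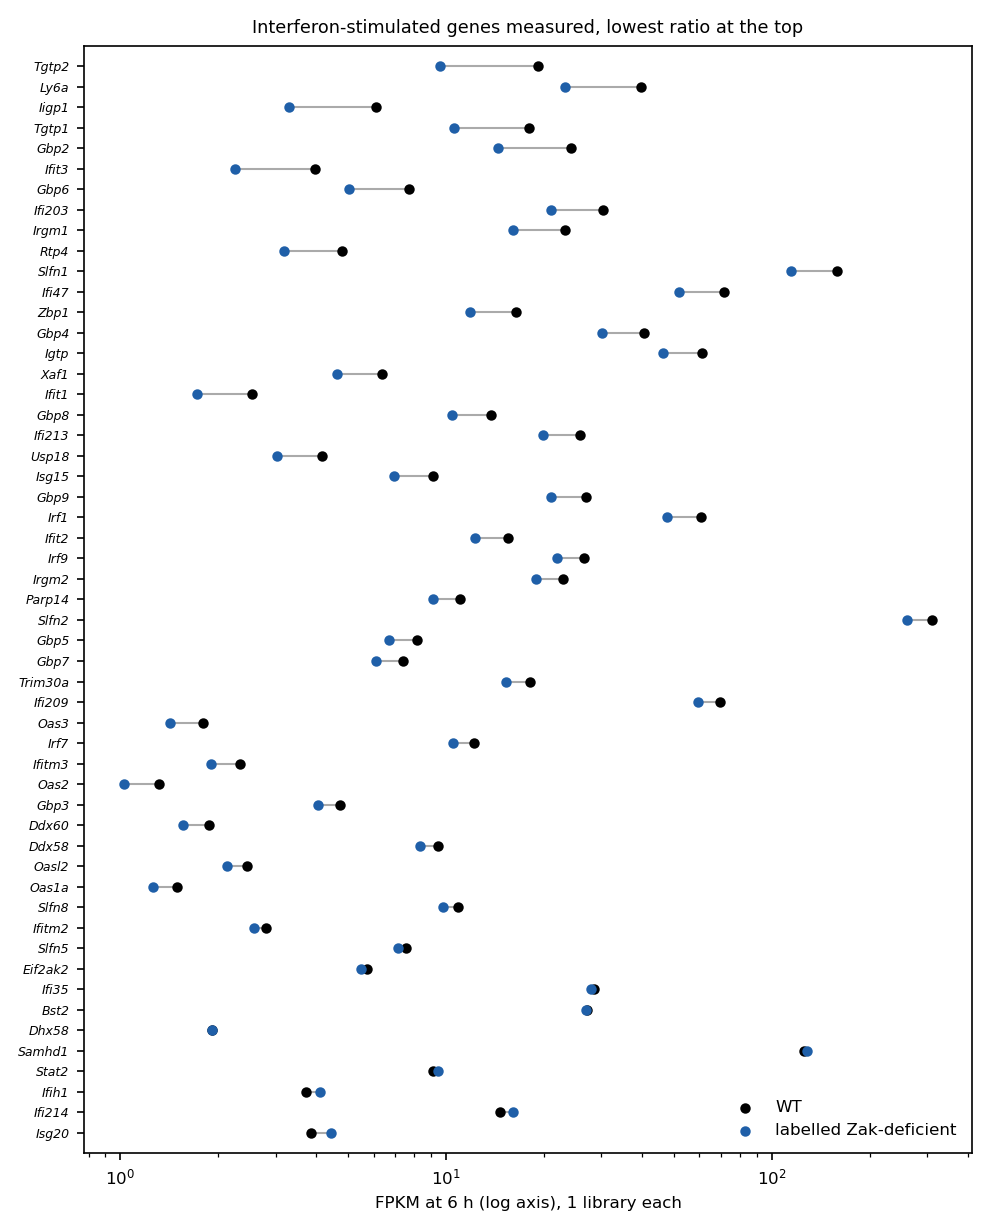
FPKM at 6 h (x axis, log scale) in the WT library (black) and the Zak-labelled library (blue) for 53 of the measured interferon-stimulated genes, ordered by ratio. The blue point lies to the left for 47 genes, among them Gbp2 (24.2 and 14.4 FPKM), and Isg20, Ifi214 and Ifih1 are among the 5 that lie to the right.

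Immediate-early and TCR-induced transcription factors were higher in the Zak-labelled library. Of 31 measured, 24 were above 0 and 7 below, with a median log2 difference of 0.19, and 7 passed 5:4, against 5.4% of all genes. Nr4a1, an orphan nuclear receptor whose level follows TCR signal strength, stood at 734.0 FPKM in WT cells and 1010 in the Zak-labelled library. The AP-1 genes Junb, Fosl2 and Jund stood at 114.4 and 150.1, 41.8 and 54.6, and 44.3 and 63.0 FPKM. These 3 were among the 7 past 5:4. Rel, the NF-kB subunit c-Rel, stood at 20.8 and 27.8 FPKM. Fos and Egr1, classic targets of ERK, stood at 23.2 and 29.7 and at 195.9 and 245.1. Others differed little or the other way: Irf4 stood at 208.8 and 235.1 FPKM, Batf at 17.7 and 16.8, and Atf3 at 16.2 and 14.7. At 0 h the same list lay on the other side, with 25 of 31 genes below 0, against 51.9% of all genes. The median was -0.18 at 0 h and -0.03 at 48 h. These are separate pairs of libraries, and the difference between the times was not tested.

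Genes for chromatin regulators were the highest list. Of 41 measured, 35 were higher and 6 lower, against 46.5% of all genes above 0, with a median log2 difference of 0.30. Of them 17 were higher by 5:4 or more, against 5.4% of all genes. Among genes with transcripts of 6582 bases or more this share was 14.7%. Among methyltransferases that mark active promoters and enhancers, Kmt2d stood at 22.6 FPKM in WT cells and 34.2 in the Zak-labelled library, Setd1b at 13.9 and 20.6 and Setd1a at 27.3 and 38.8. Kmt2a (23.5 and 29.6 FPKM) and Kmt2c (7.12 and 8.87) fell short of 5:4. SWI/SNF genes, for subunits of a nucleosome remodeller, were spread from the lowest member of the list upwards. Smarca2 stood at 33.7 and 27.2 FPKM, Arid2 at 8.2 and 8.64, Smarcc1 at 27.8 and 30.4, Arid1a at 43.1 and 62.1 and Arid1b at 9.17 and 13.3. Polycomb genes, whose products place the marks that Kdm6b removes, lay on both sides. Ezh2 stood at 18.02 and 16.11 FPKM, Eed at 33.5 and 28.6 and Suz12 at 45.4 and 42.2, while Ezh1 stood at 26.5 and 30.0. After centring on GC content and length (below), Ezh2 was at -0.02 and Suz12 at -0.03. The list's transcripts are long, with a median of 8187 bases. Its median difference was 0.28 after centring on GC content alone and 0.13 after centring on length as well. After both, where the median of all genes was 0, 34 of the 41 genes were above 0 and Kdm6b (0.48) alone still passed 5:4. Arid1b, at 0.29, came next. At 48 h 37 of the 41 genes were below 0, against 53.9% of all genes, with a median of -0.07.

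The difference between the 6 h libraries followed the GC content of the transcripts across all genes. In 10 equal groups ordered by GC content, the median log2 difference was -0.17 in the lowest (31.0% to 41.1% GC) and 0.17 in the highest (57.5% to 70.7%), with every group between them in order. This trend of 0.34 compares with -0.04 at 0 h and 0.05 at 48 h. Across genes, Pearson's r between GC content and the 6 h difference was 0.43, a description over genes that share libraries and are not replicates. Against its own 0 h library, the 6 h WT library had a trend of -0.04 and the 6 h Zak-labelled library one of 0.34. The group of highest GC content held 19 of the genes 1.5-fold higher and 1 of those 1.5-fold lower, and the group of lowest GC content held 4 and 18.

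The coding sequences below were picked for high or low GC content among named genes, so their contrast is no support for the trend. They are from GENCODE M21, as the middle 90 coding bases 5′ to 3′, with each G and C in capitals. Scand1 and Inafm2 have the highest coding GC content among the 15 higher genes without a near copy (75.6% and 73.7%), and Cfap36 and Eif3j1 the lowest among the 15 lower ones (43.7% and 44.1%).
Scand1: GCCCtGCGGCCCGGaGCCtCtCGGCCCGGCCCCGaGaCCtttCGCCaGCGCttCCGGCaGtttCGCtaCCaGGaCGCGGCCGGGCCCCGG
Inafm2: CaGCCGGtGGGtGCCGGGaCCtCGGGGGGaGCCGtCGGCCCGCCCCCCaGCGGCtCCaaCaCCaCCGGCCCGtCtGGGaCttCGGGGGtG
Cfap36: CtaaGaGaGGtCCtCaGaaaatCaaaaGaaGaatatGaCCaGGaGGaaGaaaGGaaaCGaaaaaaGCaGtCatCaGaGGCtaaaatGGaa
Eif3j1: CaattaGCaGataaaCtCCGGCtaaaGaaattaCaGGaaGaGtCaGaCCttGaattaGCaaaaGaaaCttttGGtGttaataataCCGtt

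Transcript length moved with the difference as well. In 10 groups ordered by the longest transcript, the median was -0.11 in the shortest (up to 1395 bases) and 0.11 in the longest (6582 bases or more), against a change of 0.04 at 0 h and -0.07 at 48 h. Both properties together spanned a wider range: genes in the fifth lowest in both stood at a median of -0.29, and genes in the fifth highest in both at 0.30. The 81 higher genes had a median GC content of 54.7% and a median transcript length of 3648 bases, and the 90 lower genes 45.0% and 1478 bases. Over all measured genes these medians were 49.4% and 3342 bases. A transcript was found for 66 of the 81 higher genes and 83 of the 90 lower, so their medians cover only those.

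**Figure D4:**
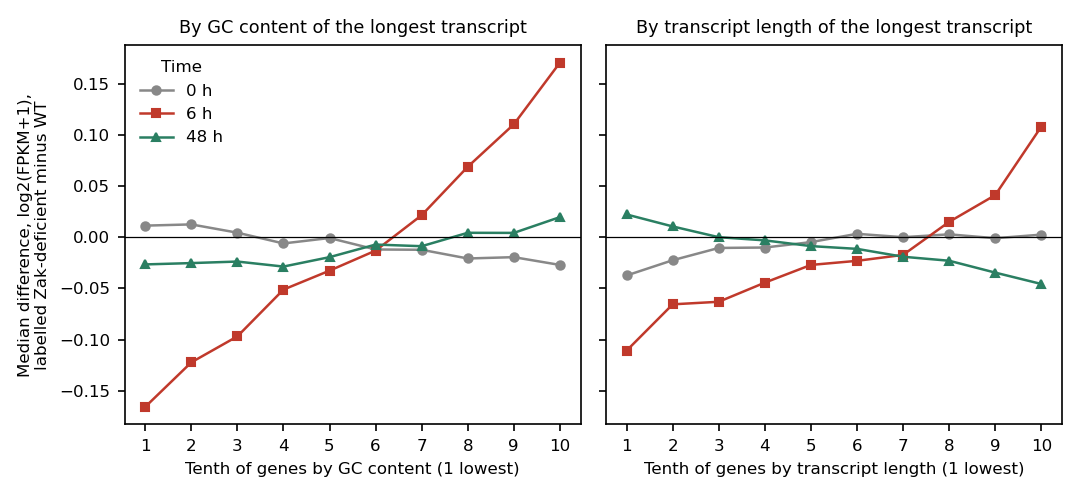
Median difference between the genotypes (y axis, log2(FPKM+1), labelled Zak-deficient minus WT) in 10 equal groups of genes ordered by GC content (left) and by length (right) of the longest transcript, at 0 h (circles), 6 h (squares) and 48 h (triangles). The 6 h line runs from -0.17 to 0.17 over GC content and from -0.11 to 0.11 over length, while the lines of the other times stay within 0.05 of 0.

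Each list was therefore also read after centring, which subtracted the median of its bin of GC content and next that of its bin of length (20 bins each) from every gene. Of 48 lists with 5 or more measured members, 18 had a median at least 0.10 from that of all genes, 12 higher and 6 lower, and 5 of these were still apart after centring. They were interferon-stimulated genes (-0.25 as measured, -0.22 centred), immediate-early factors (0.19, 0.15), chromatin regulators (0.30, 0.13), inhibitory receptors and TCR brakes (0.14, 0.10) and sterol and fatty acid synthesis (0.10, 0.11). The cytokine list was apart after centring alone (0.00, 0.12).

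Inhibitory receptors and other brakes on TCR signalling had 14 of 22 members above 0, against 46.5% of all genes. Beside Lag3, these included Cbl, a ubiquitin ligase for signalling proteins, at 13.8 FPKM in WT cells and 18.6 in the Zak-labelled library, and Dgkz, which consumes the second messenger diacylglycerol, at 114.6 and 151.7. Some receptors of the list were close to equal: Ctla4 stood at 47.9 and 47.7 FPKM and Btla at 67.9 and 67.7. Ptpn2, a phosphatase for JAK and STAT proteins, was the lowest, at 47.6 and 39.4 FPKM. Lag3 was the 1 member past 1.5-fold, against 0.783% of all genes higher by that much.

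Sterol and fatty acid genes had 22 of 34 members above 0, against 46.5% of all genes, and 6 higher by 5:4 or more, against 5.4%. Srebf2, the master transcription factor of sterol synthesis, stood at 61.8 FPKM in WT cells and 91.8 in the Zak-labelled library, and Scap, its escort protein, at 29.2 and 39.8. Fasn, the fatty acid synthase, stood at 28.9 and 43.2 FPKM. The genes for Nsdhl and Ebp, late enzymes of sterol synthesis, stood at 7.63 and 6.07 and at 16.3 and 14.1 FPKM.

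Among cytokine genes 9 of 18 measured were above 0 and 9 below. Il2, the T cell growth factor, stood at 12.1 FPKM in WT cells and 8.65 in the Zak-labelled library, and Tnfsf11, which encodes RANKL, at 35.59 and 26.01. Both transcripts are low in GC content (39.4% and 44.9%). Tnf stood at 127.4 and 141.6 FPKM and the lymphotoxin gene Ltb at 432.7 and 521.4. No cytokine gene passed 1.5-fold, against 0.783% of all genes higher and 0.87% lower, so with 18 genes this is close to those shares.

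The lists of ribosomal proteins, the proteasome and the respiratory chain lay below 0 and moved to near 0 on centring, while glycolysis and pentose phosphate genes had a median of 0.04. Of 79 cytosolic ribosomal protein genes 71 were lower as measured and 57 after centring, against 53.1% of all genes as measured. Their median was -0.19 as measured and -0.05 centred. Rpl39 stood at 1312 FPKM in WT cells and 887.4 in the Zak-labelled library, while Rplp0 stood at 2655 and 2761. Of 45 proteasome genes 42 were lower as measured and 31 after centring (-0.16, -0.06), with Psma1 at 80.7 and 61.9 FPKM. Of 76 genes of the respiratory chain and ATP synthase 63 were lower as measured and 42 after centring (-0.15, -0.01). Uqcrb, a subunit of complex III, stood at 112.0 and 73.1 FPKM, while Ndufs7, a subunit of complex I, stood at 55.6 and 64.4. The median transcript length of these lists was 1094 bases, 1907 bases and 1186 bases, against 3342 bases for all genes, and the part of composition and length in the differences was not tested beyond the centring.

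**Figure D5:**
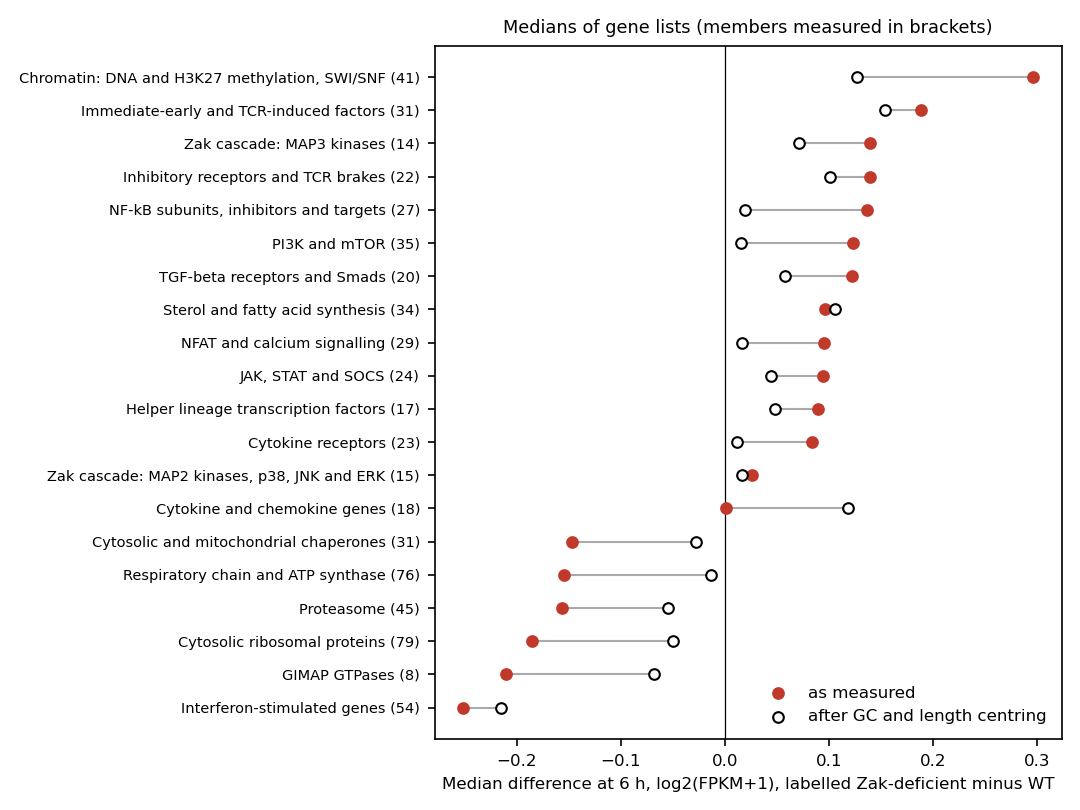
Median difference at 6 h (x axis, log2(FPKM+1), labelled Zak-deficient minus WT) of gene lists as measured (filled) and after centring on GC content and length (open), with the number of measured members in brackets. The interferon list stays near its measured value (-0.25 and -0.22), whereas the ribosomal, proteasome and respiratory lists move to between -0.06 and -0.01.

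Most kinases of the Zak pathway, like most genes, differed little at 6 h. Among MAP2 kinases, p38, JNK and ERK, 8 of 15 measured genes were above 0 and 7 below, and the median was 0.03. In this list 0 passed 5:4 in either direction, against 5.4% of all genes higher and 7.06% lower. With 15 genes, 0 is close to those shares. Map2k7 and Map2k4, which activate JNK, stood at 43.9 and 54.1 and at 13.7 and 12.3 FPKM. Map2k3, which activates p38, stood at 166.3 and 169.3 FPKM, and Mapk14, the main p38 gene, at 35.8 and 36.6. All 4 of these lay within 5:4. The JNK genes Mapk8 and Mapk9 stood at 9.55 and 8.56 and at 13.4 and 11.9 FPKM. Of 14 measured MAP3 kinases 10 were above 0, against 46.5% of all genes, and 3 were higher by 5:4 or more, against 5.4%, with a median of 0.14 as measured and 0.07 centred. Map3k14, the NIK kinase of noncanonical NF-kB signalling, stood at 21.7 and 29.0 FPKM and Taok2 at 20.1 and 29.1.

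Downstream of these kinases, 20 genes were measured, and 2 were higher by 5:4 or more, against 5.4% of all genes. Elk4, an ETS factor that binds serum response elements with SRF, stood at 10.8 FPKM in WT cells and 18.4 in the Zak-labelled library, and Mef2d, a MADS-box factor of calcium signalling, at 67.2 and 86.8. The remaining 18 differed by less than 5:4, among them the mRNA decay factor Zfp36 at 159.2 and 170.1 FPKM and the stress factor Ddit3 at 56.4 and 51.7. Of 16 measured phosphatases and feedback inhibitors, Dusp5 and Dusp4 were higher by 5:4 or more, against 5.4% of all genes, the latter at 8.48 and 12.4 FPKM. Dusp1 stood at 19.1 and 17.7 FPKM, Dusp6 at 23.94 and 23.99 and Dusp10, which acts on p38 and JNK, at 31.3 and 32.8. Of 19 measured genes that detect or clear stalled ribosomes, 3 were higher by 5:4 or more, against 5.4% of all genes: Gcn1 (20.3 and 30.8 FPKM), Gigyf1 (33.8 and 45.9) and Zfp598 (45.6 and 57.6). Pelo, which splits stalled ribosomes, stood at 10.7 and 12.1 FPKM, and the list median was 0.05 as measured and 0.01 centred.

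Marker sums of some other tissues were lower in the 6 h Zak-labelled library. The 4 liver markers summed to 20.4 FPKM in WT cells and 12.4 in the Zak-labelled library at 6 h, with all 4 lower, and to 26.7 and 0.04 at 48 h. The 7 markers of stroma or endothelium summed to 56.3 and 50.7 FPKM with all 7 lower, and the 6 markers of NK cells to 24.95 and 18.1 with 2 lower and 3 higher. Most of each sum came from 1 gene, Pecam1 (54.5 and 50.1 FPKM), which naive T cells also express, and Klrd1 (21.01 and 13.8). Their part in the lower interferon list was not tested. The urinary protein gene Mup7, among the 15 lowest genes, stood at 7.06 and 3.63 FPKM at 6 h (log2 difference -0.80, and -0.50 centred, short of 1.5-fold) and at 11.8 and 1.07 at 48 h.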

How the data were processed

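The table deposited by the authors holds FPKM for 18446 genes by NCBI identifier, 1 value per gene and library. Per the submitters' processing notes, Bowtie, RSEM and mm10 were used, in versions not given in the sources used here. RNA prepared with Trizol and RNeasy columns was sequenced on an Illumina HiSeq, per the labels' protocols. The files give no read numbers, so the depth and counting error of each value are unknown.

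A total of 18326 identifiers had a symbol in RefSeq (GRCm38.p6). Values were not rescaled. Genes counted when the 6 h libraries differed by 1.5-fold or by a ratio of 5 to 4 on log2(FPKM+1). GC content and length came from the longest GENCODE M21 transcript, found for 98.7% of measured genes. A near-identical copy means that 50% or more of a transcript's 24-base stretches occur in another gene. The alternative without genes that share sequence dropped such copies and genes with a 24-base stretch found in 50 or more genes. Centring subtracted the median of 20 bins and left out measured genes without a GENCODE M21 transcript. The code was checked on simulated data. Alternatives changed the pseudocount (0.1 or 5 FPKM), filter (none, or a mean of 5 FPKM), scaling, fold rule, centring and treatment of copies.

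Genes named were Map3k20, the 15 largest differences each way with a mean of 5 FPKM or more (gene models and receptor segments passed over), up to 4 members each way of a list, all measured members of the Zak pathway lists, and markers; others named (within the interferon, chromatin, immediate-early and cytokine groups, the interferon receptors, Ctla4 and Btla) were chosen after their values were seen. Some genes that this rule would name are not reported here. The members and lists were chosen with earlier results of these data known. Software: Python 3.11.15, numpy 2.4.6, pandas 2.3.3 and matplotlib 3.10.9.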

Additional observations from a re-analysis of the deposited data

Results flagged for a closer look

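H2-Q6, a nonclassical MHC class I gene, differed in opposite directions at different times. Its log2 difference at 6 h was 0.95 (19.2 FPKM in WT and 38.1 in the Zak-labelled library), and at 0 h it was -0.77 (63.4 and 36.8 FPKM). The difference between the times was not tested, since each rests on 1 library a side. More than 50% of its transcript sequence (54.5%) recurs in another gene, so its level is uncertain.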

How the results depend on the processing

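No paired analysis was possible because the 6 h comparison has 1 library per genotype; a genotype fit paired over the 3 times asks another question and was not run. Depth is unknown, so the limits of detection cannot be stated. The counts of genes 1.5-fold higher and lower (81 and 90) were 153 and 242 with a pseudocount of 0.1 FPKM, 20 and 15 with 5 FPKM, 49 and 46 with a mean of 5 FPKM or more, 122 and 59 on a common sum, 53 and 61 after centring on GC content, 42 and 40 after centring on GC content and length, and 53 and 60 without genes that share sequence. They were 559 and 730 under the rule of 5 to 4 and 12 and 13 under the 2-fold rule. The centred counts cover only the 10211 genes with a GC value, which hold 66 of the 81 higher genes and 83 of the 90 lower. The share of higher among called genes, 47.4% as reported, was 67.4% on a common sum. The GC trend of 0.34 was 0.23 with a pseudocount of 5 FPKM and 0.17 with no filter, and between 0.26 and 0.38 under the other alternatives.

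The median of all genes lay between -0.03 and 0.05. Of 180 alternative values for the 18 lists apart, 171 kept their distance from all genes within 0.10 log2 and their side. This tolerance equals the cut for a list being apart, so a list near the cut could come close to 0 and still count. The proteasome list did so, at -0.16 as measured and -0.06 after centring on GC content and length. Only 5 of the 18 lists stayed apart after that centring. After centring on GC content and length, the medians were 0.019 for NF-kB (0.043 with GC content alone), -0.050 for cytosolic ribosomal proteins, -0.013 for the respiratory chain, -0.028 for chaperones, 0.016 for PI3K and mTOR, -0.068 for GIMAP GTPases and 0.13 for chromatin regulators. Cytokine receptors, at 0.08, turned to -0.087 without genes that share sequence; the cause was not tested beyond the smaller number of members.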
